A study of Mus musculus with 3 samples.

Results

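Accessible regions of divided CBir1 T cells were set against those of polyclonal CD4+ T cells sorted from the same nodes, region by region and gene by gene. Peaks of the 2 lists on chromosomes 1 to 19 that shared at least 1 bp were merged, which gave 52875 regions, against 55946 when the list of undivided CBir1 cells was merged in as well. Naive CD4+ cells from the spleens of mice transgenic for the CBir1 T cell receptor, specific for a flagellin made by gut bacteria, were loaded with the dye CellTrace Violet and transferred into 4 wild-type C57BL/6J recipients. From the next day their drinking water held 2% dextran sulfate sodium (DSS), a chemical that injures the lining of the colon, for 7 days. FTY720 at 1 mg/kg, which stops lymphocytes from leaving the nodes, followed on days 7, 10 and 13, and the mesenteric nodes that drain the colon were harvested 14 days after the start of DSS. The divided fraction was CBir1 cells that had diluted the dye, and the polyclonal fraction was all endogenous CD4+ T cells that were not CBir1 cells. The remaining fraction, CBir1 cells that had kept the dye (undivided), is used here only as a readout that took no part in choosing the regions. Fractions of 2 mice were pooled, in duplicate per the labels, but 1 list per fraction was analysed, so each group is 1 library and differences could not be checked against replicates or given p-values. Every group carries DSS and FTY720, the CBir1 fractions differ from the polyclonal one in receptor, transfer and origin together with division, and the polyclonal fraction was not split by division or activation.

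ATAC-seq uses a transposase that cuts and tags DNA where it is not covered by nucleosomes or tightly folded, so that enhancers and promoters in use yield many fragments. When a naive helper T cell meets its antigen it divides, and enhancers of cytokine, cytokine receptor and lineage factor genes open, while enhancers of genes for quiescence and lymph node homing can close. A polyclonal helper population mixes naive, memory, effector and regulatory cells, so its signal at any region is an average over them.

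Regions over gene starts differed in few places, and 6 of those starts are shown because they carry results described further on. Each line is the 250 bases before a transcription start in RefSeq GRCm38.p6, the assembly of mm10, 5′ to 3′ on the gene's strand, in lower case with matches to the searched motifs in capitals. These genes were chosen after their values were seen. Il2 and Il21 encode cytokines of activated helper cells, and their starts lie on chromosome 3, minus strand, at chr3:37125955-37126204 and chr3:37232637-37232886.
Il2: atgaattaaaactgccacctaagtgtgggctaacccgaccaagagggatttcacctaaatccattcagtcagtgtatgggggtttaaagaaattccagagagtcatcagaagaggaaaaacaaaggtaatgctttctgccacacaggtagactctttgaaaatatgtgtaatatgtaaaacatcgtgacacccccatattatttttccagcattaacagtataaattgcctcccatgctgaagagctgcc
Il21: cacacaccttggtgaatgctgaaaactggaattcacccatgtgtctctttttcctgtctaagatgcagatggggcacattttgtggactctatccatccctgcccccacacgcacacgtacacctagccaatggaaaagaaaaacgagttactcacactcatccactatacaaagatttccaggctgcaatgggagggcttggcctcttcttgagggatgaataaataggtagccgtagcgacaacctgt
Casp4, an inflammatory caspase, and Tnfsf14, the TNF family ligand LIGHT, also had more signal in divided cells, at chr9:5308599-5308848 (plus strand) and chr17:57194182-57194431 (minus strand). The capitals mark 2 matches to GGGNNTTCC (NF-kB), whose first bases lie 92 and 39 bases before the Casp4 start, and 1 match to TGANTCA (AP-1) that begins 160 bases before the Tnfsf14 start.
Casp4: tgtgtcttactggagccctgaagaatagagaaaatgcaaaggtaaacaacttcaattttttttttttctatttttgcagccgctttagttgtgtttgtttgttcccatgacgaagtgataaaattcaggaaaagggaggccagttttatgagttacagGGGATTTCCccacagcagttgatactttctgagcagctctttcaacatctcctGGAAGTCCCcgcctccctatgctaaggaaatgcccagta
Tnfsf14: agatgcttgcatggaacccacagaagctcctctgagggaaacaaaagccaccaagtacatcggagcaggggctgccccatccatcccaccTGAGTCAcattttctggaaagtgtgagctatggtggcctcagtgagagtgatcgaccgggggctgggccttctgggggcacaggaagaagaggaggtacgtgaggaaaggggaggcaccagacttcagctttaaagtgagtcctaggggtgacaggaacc
Cd101, a membrane glycoprotein that dampens T cell activation, and Tspan9, a tetraspanin, had more signal in polyclonal cells, at chr3:101029554-101029803 and chr6:128035063-128035312, both on the minus strand. The capitals mark 1 match to TGTGGT (RUNX, read on the other strand) that begins 49 bases before the Cd101 start.
Cd101: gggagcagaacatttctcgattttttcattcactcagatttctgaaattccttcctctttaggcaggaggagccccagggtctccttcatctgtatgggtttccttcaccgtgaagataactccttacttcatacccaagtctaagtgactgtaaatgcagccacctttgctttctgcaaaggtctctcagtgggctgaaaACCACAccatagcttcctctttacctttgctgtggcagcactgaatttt
Tspan9: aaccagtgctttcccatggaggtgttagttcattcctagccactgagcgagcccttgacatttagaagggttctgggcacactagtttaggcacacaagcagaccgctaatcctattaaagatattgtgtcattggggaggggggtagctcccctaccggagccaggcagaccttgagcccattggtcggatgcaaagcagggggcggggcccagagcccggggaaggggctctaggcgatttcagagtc

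The libraries held 46764 (divided) and 43327 (polyclonal) autosomal peaks with median summit pileups of 31 and 27 fragments. The pileup is the number of fragments over a peak's highest point, and it was recovered from the deposited values as described under the processing. By the lowest background, 1.21 and 0.865 fragments, the divided library was 1.40 times as deep, and over regions called in both lists its pileup was a median 1.20 times as high. Ratios below are divided over polyclonal after dividing the divided pileup by 1.20, so that a value of 1 is the median shared region. Their 95% intervals cover counting error only, and pileups in the text are as recovered, not rescaled, unless named so. Of 10 CD4 T cell markers, 10 had a region within 1 kb of a gene end in the divided list and 9 in the polyclonal list, with summed pileups of 1146 (rescaled) and 1175 fragments. Of 10 B cell markers, 4 and 3 had a region there, with Cd79a highest at 80.8 (rescaled) and 94 fragments, while Ms4a1, Cd79b and Pax5 had none in either list. Blk had one in the divided list only, at 8.32 fragments (rescaled). Farther from its ends Pax5 had 2 shared regions, with log2 ratios of 1.39 and 1.52. They were the only shared regions of B cell markers past 2-fold, with 0 higher in polyclonal cells. A gene-end region can be nearest to another gene's span. The Cd79a value includes such a region, since it does not give the log2 ratio (−0.12) of the 1 region nearest to Cd79a. Of 10 myeloid markers, 2 and 3 had one, among them Cd14 with 22.5 (rescaled) and 31 fragments, while Lyz2, Csf1r, Adgre1 and Mpeg1 had none in either list.

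Of the 52875 regions, 35969 were called in both lists (68.0%, Wilson 95% interval 67.6 to 68.4), 10348 in the divided list only (19.6%, 19.2 to 19.9) and 6558 in the polyclonal list only (12.4%, 12.1 to 12.7). Divided-only regions were thus 61.2% of the one-sided ones, and between 55.6% (chromosome 15) and 64.3% (chromosome 16) of them on each autosome. One-sided regions were small: their median pileup was 12 fragments (divided) and 9 (polyclonal), against 43 and 35 in the shared regions, and their median widths were 262 and 243 bp against 700 bp. In a sorted population, fewer cells with a region open and less open DNA per cell cannot be told apart. A region absent from a list is below that list's calling threshold, not shown to be closed. At a −log10 q of at least 5 there were 5483 divided-only and 2829 polyclonal-only regions. A peak of the other list lay within 1 kb of 13.4% of the former (12.5 to 14.3) and 12.8% of the latter (11.6 to 14.1).

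The one-sided regions lay away from gene starts. A start window, from 250 bases before to 50 after an annotated start, was touched by 26.1% of shared, 3.25% of divided-only and 2.63% of polyclonal-only regions. In contrast, 68.1%, 58.9% and 57.7% of them lay inside a protein-coding gene's span, which the table does not divide into exons and introns. The shared regions behaved likewise: of 8578 that touched a start window and reached a rescaled pileup of 20 in the higher library, 54 (0.63%) were at least 2-fold higher in divided and 41 (0.48%) at least 2-fold higher in polyclonal cells. Of 18271 away from starts, 837 (4.58%) and 602 (3.29%) were. Shared regions were wider (median 700 bp against 262 and 243), and a wider region can touch more windows. Shared regions past 2-fold had median divided and polyclonal pileups of 41 and 14 (higher in divided) and 15 and 32 (higher in polyclonal). Those within 2-fold had 64 and 52. The part of width and pileup in these shares was not tested.

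Over all 27582 shared regions with that minimum, 917 (3.32%) were at least 2-fold higher in divided cells and 661 (2.4%) at least 2-fold higher in polyclonal cells, and 143 and 121 passed 3-fold. The middle 90% of all shared regions had log2 ratios from −0.75 to 0.87, so most of the common landscape differed little. Scaling by background instead of by shared regions lowers every log2 ratio by 0.22 and turns the counts past 2-fold to 415 and 1182, so which side holds more of them depends on the scale. The plot of shared regions shows the ratios narrowing as pileup grows, apart from single regions, 3 of them in the T cell receptor beta locus.

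**Figure D1:**
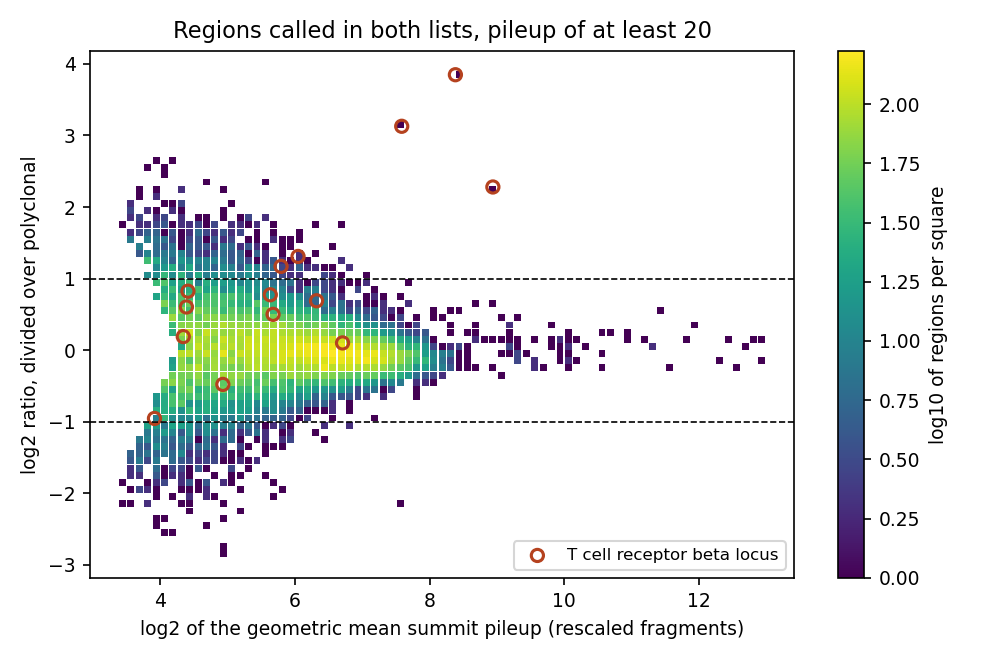
Regions called in both lists with a rescaled pileup of at least 20 in the higher library: log2 ratio of divided over polyclonal summit pileup (vertical) against the log2 geometric mean pileup (horizontal), coloured by the number of regions per square, with regions of the T cell receptor beta locus circled and dashed lines at 2-fold. The spread narrows to the right, while 3 circled regions stand at ratios of 14.4, 8.75 and 4.86.

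The undivided CBir1 library, which no rule used and whose lowest background was 0.808 fragments, differed in how often it held the regions of each side. It had a peak in 29.7% (28.5 to 30.9) of the 5483 divided-only regions but in 53.7% (51.9 to 55.6) of the 2829 polyclonal-only ones. Among shared regions it had a peak in 65.4% (62.3 to 68.4) of those at least 2-fold higher in divided cells, with a median pileup of 17 where called. It had one in 95.9% (94.1 to 97.2) of those at least 2-fold higher in polyclonal cells, with a median pileup of 28, close to the 96.6% of regions that differed by less than 2-fold. The undivided and polyclonal lists thus held polyclonal-side regions together more often than the undivided and divided lists held divided-side ones. By lowest background the undivided library was near the polyclonal one (0.865) in depth and shallower than the divided one (1.21). A shallower list misses more weak regions, and the part of depth in these shares was not tested.

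**Figure D2:**
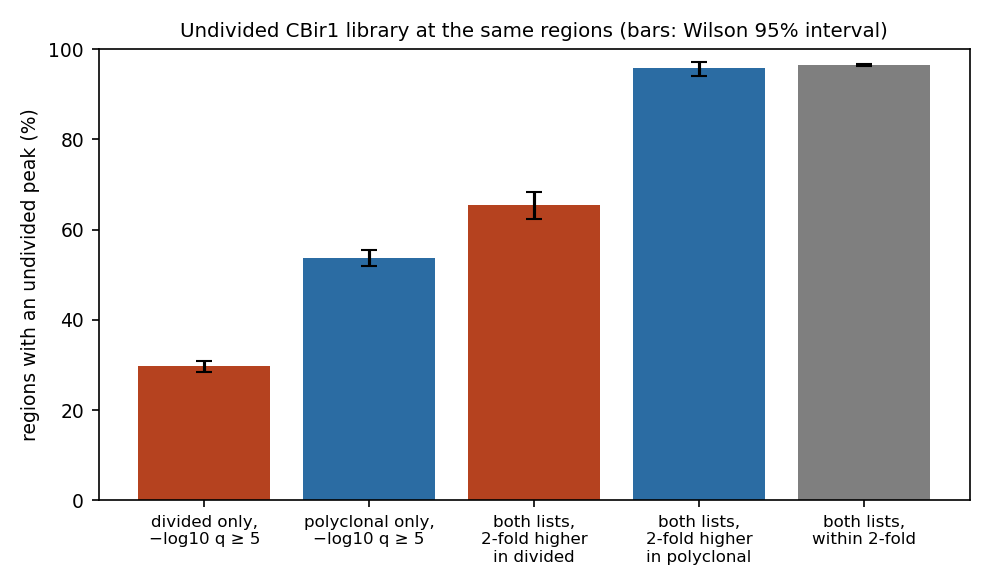
Percent of regions with a peak in the undivided CBir1 library, with Wilson 95% intervals as bars, for regions called in 1 list only (−log10 q of at least 5) and for regions called in both lists by the size of their ratio. The divided-side bars stand at 29.7% and 65.4%, the polyclonal-side bars at 53.7% and 95.9%.

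The 2 highest ratios of the shared regions lay in the T cell receptor beta locus on chromosome 6, where the V, D, J and C segments of the receptor's beta chain are joined during development. Over Trbv12-2 (chr6:41118099-41119023) the pileup was 1524 fragments in divided and 88 in polyclonal cells, a ratio of 14.4 (11.6 to 18.1). The neighbouring region over Trbv13-1 (chr6:41115982-41116730) was called in divided cells only, with 572 fragments. Undivided cells had 1606 and 664 fragments there, not rescaled for the shallower undivided library. Over Trbv12-2 both CBir1 fractions were thus far above the polyclonal one, and whether they were level with each other was not tested. Over the joining segment Trbj2-7 (chr6:41543812-41545642) the values were 683 and 65 fragments, a ratio of 8.75 (6.78 to 11.5), with 634 in undivided cells. Downstream of the C segments, in the stretch before Trbv31 that is known to hold the locus's enhancer (chr6:41553179-41555184), they were 1301 and 223, with 1584 in undivided cells. In the other direction, a region next to the diversity segment Trbd2 was called in polyclonal cells only, at 57 fragments, and regions over Trbv13-2 at 24 and 28. The CBir1 cells carry transgenes for a rearranged receptor, so more copies of the DNA and more open DNA cannot be told apart here. In the alpha and delta locus on chromosome 14, 13 of 85 shared regions were at least 2-fold higher in polyclonal cells and 1 in divided cells, with a median log2 ratio of −0.48. In the beta locus 5 of 20 shared regions were higher in divided cells and 0 in polyclonal cells, with a median of 0.47.

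Gene by gene, 14281 of 20665 autosomal protein-coding genes were the nearest gene span within 100 kb of at least 1 region. A gene's net count is its divided-only minus its polyclonal-only regions with a −log10 q of at least 5. It was above 0 for 3227 genes (22.6% of the 14281) and below 0 for 1361 (9.53%), at least 5 for 26 genes and −5 or lower for 4. Over all genes 5174 divided-only and 2618 polyclonal-only regions entered it, 66.4% of them divided-only. The net count is not scaled to the number of regions of a gene, so genes with many regions can reach larger values. With shared regions included, the 10 highest genes had 19 to 33 regions and the 10 lowest 8 to 34. A second rank used the median log2 ratio of a gene's shared regions, for the 2676 genes with at least 4. Those medians ran from −0.40 to 0.47 at the 5th and 95th percentiles, and 5 genes reached 1 and 4 reached −1. The ranks used different regions of the same libraries: of 153 genes with a net count of at least 3 and enough shared regions, 118 had a median above 0 (middle value 0.15), and of 42 genes at −3 or lower, 7 did (−0.14), against 1418 of all 2676. These counts hold on the scale of shared regions only, since scaling by background shifts every log2 ratio by −0.22. The 20 genes at the ends of the net rank and the 12 at the ends of the median rank are described by what they encode.

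**Figure D3:**
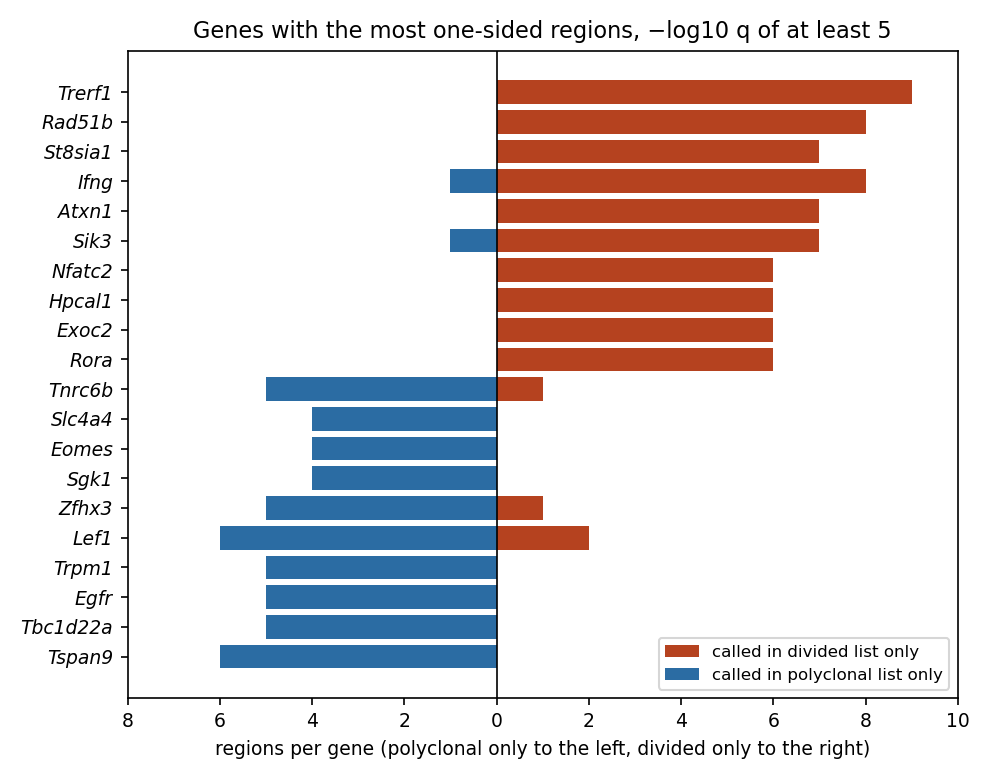
The 10 genes with the highest and the 10 with the lowest net count: regions with a −log10 q of at least 5 called in the divided list only (red, to the right) and in the polyclonal list only (blue, to the left). Trerf1 has 9 against 0 and Tspan9 0 against 6.

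Of the 10 genes with the highest net counts, 4 encode regulators of transcription and are described first. Trerf1, a zinc finger regulator of transcription, ranked first, with 9 divided-only and 0 polyclonal-only regions. Its start had 137 fragments in divided and 117 in polyclonal cells, nearly level after rescaling, whereas a region inside the gene (chr17:47170809-47171549) had 92 against 25 and 18 in undivided cells. Of the 9 divided-only regions, the highest held 34 fragments (chr17:47164765-47165125), and undivided cells had a peak in 1. Nfatc2, a calcium-driven factor that turns on cytokine genes after receptor signals, had 6 and 0. The divided-only region with most fragments (63) lay inside the gene at chr2:168577426-168577649, and its 7 shared regions had ratios above 1 on this scale, with a median log2 ratio of 0.24. Rora, a nuclear receptor that takes part in Th17 differentiation, had 6 and 0, with pileups of up to 27 fragments and a median log2 ratio of 0.23. Atxn1, a transcriptional repressor partner, stood out on both measures, with 7 and 0 one-sided regions and 4 of 16 shared regions at least 2-fold higher in divided cells. Its widest ratio was 33 against 7 fragments (chr13:45685976-45686557), a log2 ratio of 1.97.

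Ifng, the gene of the Th1 cytokine interferon gamma, was the only cytokine gene among the 20, with 8 divided-only regions and 1 polyclonal-only. Of the 8, 1 touched the start (chr10:118440666-118441084, 17 fragments), 2 more lay inside the gene with 13 and 15, and 5 lay downstream with 13 to 36. Undivided cells had no peak in any of the 8. Farther regions that both lists shared included 1 upstream of the gene (chr10:118418770-118419615) with 159 and 143 fragments, and 134 in undivided cells, so that this flank was open in all fractions. The shared pair downstream had 43 against 20 and 36 against 17 fragments, log2 ratios of 0.84 and 0.82, short of 2-fold.

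**Figure D4:**
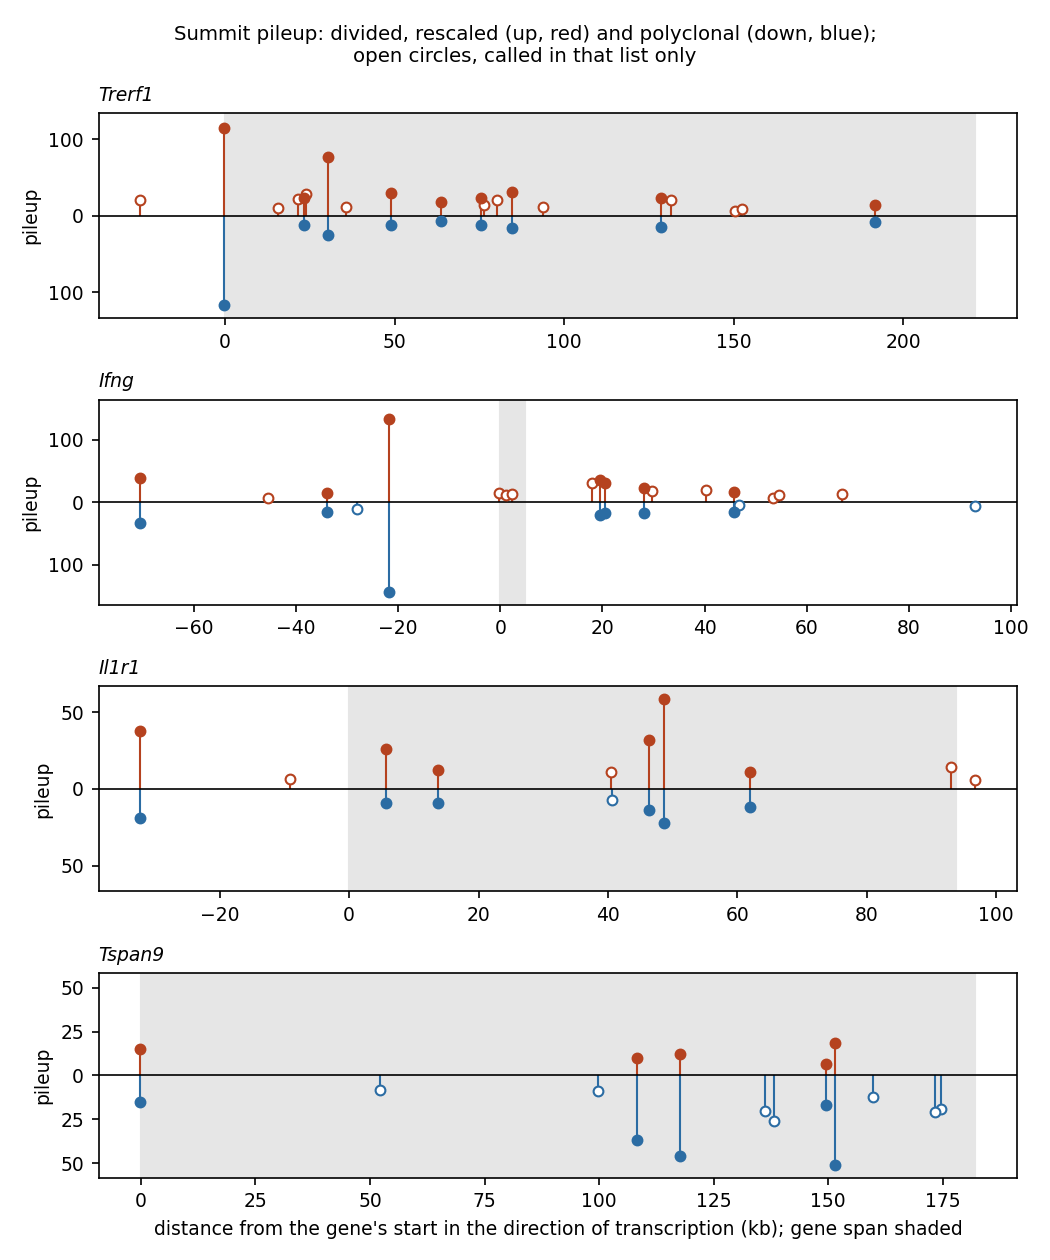
Summit pileups of all regions nearest to Trerf1, Ifng, Il1r1 and Tspan9 by distance in kb from the gene's start, divided (rescaled) upward in red and polyclonal downward in blue, with open circles for regions called in that list only and the gene span shaded. The open red circles of Trerf1 and Ifng have no blue partner, and the blue lines of Tspan9 exceed the red ones away from its start.

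The other high-ranking genes encode enzymes and signalling or trafficking proteins. Rad51b, a DNA repair protein, had 8 and 0, and 3 of its 21 shared regions were at least 2-fold higher in divided cells while its median stayed at 0.08. St8sia1, the sialyltransferase that makes ganglioside GD3, had 7 and 0. Its highest divided-only region held 56 fragments (chr6:142946885-142947282). Sik3, a salt-inducible kinase, had 7 and 1, Hpcal1, a calcium sensor, 6 and 0, and Exoc2, a subunit of the exocyst, 6 and 0, with 1 of the Exoc2 shared regions at 68 against 30 fragments (1.89-fold, 1.21 to 3.00). At Sik3 a divided-only and a polyclonal-only region lie next to each other (chr9:46149402-46149754 and chr9:46149795-46150442), and without regions that have a peak of the other list within 1 kb its net count was 3.

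Tspan9 ranked lowest on both measures, with 0 divided-only and 6 polyclonal-only regions and a median log2 ratio of −1.48 over 5 shared regions. By the authors' fold over local background in place of pileup that median was −0.15. Over one of its 4 annotated starts (chr6:128034258-128036260) divided cells had 12 and polyclonal cells 37 fragments, 3.70-fold lower (1.89 to 7.80), and undivided cells 38. Inside the gene the values were 15 against 46 and 22 against 51, with 59 and 72 in undivided cells. In these 3 regions the pileup was lower in divided cells than in either other fraction. Palld, an actin-binding protein, had 0 and 3 and a median of −1.45. Its lowest ratio was 12 against 47 fragments (chr8:61606602-61607356), 4.70-fold lower (2.46 to 9.74), but there undivided cells had no peak, so here the undivided cells went with the divided ones.

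Among regulators on the polyclonal side, Lef1, a factor of naive and memory T cells that pairs with Tcf7, had 2 and 6. The shared region farthest upstream (chr3:131057011-131057640) had 24 against 46 fragments and 55 in undivided cells, whereas most of its 22 shared regions were close to level (median −0.18). At a −log10 q of at least 10 its net count was 1, in the other direction. Eomes, a T-box factor of cytotoxic and memory cells, had 0 and 4 with a median of −0.01, and Zfhx3, a zinc finger homeobox factor, 1 and 5 with a median of −0.68. At Zfhx3 the strongest polyclonal-only region had 30 fragments and 25 in undivided cells (chr8:108931810-108932576). Sgk1, a kinase that salt and cytokines induce, had 0 and 4, the highest with 44 fragments and 51 in undivided cells (chr10:21975452-21975619), but a median of −0.07. The remaining 5 were Tbc1d22a, a GTPase-activating protein of the TBC family, the growth factor receptor Egfr, the ion channel Trpm1, the bicarbonate transporter Slc4a4 and Tnrc6b, a partner of Argonaute proteins, with 4 or 5 more polyclonal-only than divided-only regions each. At Slc4a4 a shared region had 15 against 49 fragments, 3.92-fold lower (2.16 to 7.53).

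The median rank brought up other genes. Fhdc1, an actin regulator, was highest at 1.41, with 45 against 6 fragments 46.7 kb from the gene, a ratio of 6.24 (2.66 to 17.9), and 51 against 10 inside it, 4.25 (2.13 to 9.38). Dclk1, a microtubule-linked kinase, followed at 1.27 with 3 of 5 shared regions past 2-fold, among them 61 against 21 fragments and, over a start, 55 against 19. Il1r1, the signalling receptor for IL-1 that Th17 cells use, stood at 1.08. Inside Il1r1 (chr1:40270689-40271542) the pileups were 70 and 22, a ratio of 2.65 (1.62 to 4.49), and 31 against 9 and 38 against 14 in 2 more regions, with 16, 10 and no peak in undivided cells. Gnptab, which makes the sugar tag of lysosomal enzymes, had 139 against 40 fragments at chr10:88405555-88406311, 2.89-fold (2.02 to 4.22), and 13 in undivided cells. Ifne, an epithelial type I interferon, stood at 1.02 and Synpo, an actin-associated protein, at 1.26. At the low end below Tspan9 and Palld were Aqp9, a glycerol channel (−1.07), Arpp21, an RNA-binding phosphoprotein (−1.02), Skil, a Smad corepressor (−0.95), and Zfp800 (−0.94). Zfp800 had 20 against 60 and 71 against 120 fragments in its main regions, with 65 and 142 in undivided cells. By the authors' fold in place of pileup the Zfp800 median was 0.020, so the direction at that gene depends on the measure. The other medians at these ends lay nearer 0 by that measure too, at 0.78 for Fhdc1, 0.67 for Dclk1, 0.66 for Ifne, 0.36 for Synpo, 0.22 for Gnptab and 0.19 for Il1r1, and at −0.77 for Aqp9, −0.76 for Palld, −0.55 for Arpp21 and −0.41 for Skil.

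Counting only shared regions past 2-fold, a tally made after the values were seen, 19 genes had at least 3 more higher in divided than in polyclonal cells and 11 the reverse. Fyn, a Src family kinase of the T cell receptor pathway, led with 5 and 0 of 28. Etv6, an ETS repressor, Chn2, a Rac regulator, Arhgap26 and Atxn1 followed with 4 and 0. Ets1, the ETS factor of T cell development, had 3 and 0 of 26.

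Outside the receptor locus, the divided-only regions with the highest −log10 q included one inside Ralgapb (54 fragments). Another lay 64.0 kb from Maf, the factor that drives Il10 and Il21 (chr8:115770932-115771352, 58 fragments). Others lay 6.06 to 71.7 kb from their nearest genes, Gm7697 (61), 9530057J20Rik (60), Gm15319 (71), Pcdh20 (48) and Msh6 (57). All of these divided-only regions, those of Ralgapb and Maf included, were 153 to 421 bp wide. Among polyclonal-only regions the first, 32.1 kb from Eea1, had 315 fragments and 362 in undivided cells within 264 bp. The next had 31 to 68 fragments. Of these, those of Cecr2, Ppp1r21 and Myo5b lay inside the gene. Those of Thnsl2, Pgm2 and Rell1 lay 10.4, 54.5 and 61.5 kb away. Ceacam5 was 173 kb from its region, too far for the region to enter the gene counts. For shared regions after those of the receptor locus, the highest ratios were at Gpr89 (53 against 7, 6.30-fold, 2.86 to 16.4), Fhdc1 and Slc1a2 (5.71-fold). The lowest were near N4bp1 (14 against 84, 7.21-fold lower, 4.07 to 13.7) and at Atp2b4 (6.78-fold), Cdkn2aipnl (6.01-fold), Ankrd60 (5.87-fold), Etnk2 (5.41-fold) and Dock9 (5.36-fold lower). At N4bp1 undivided cells had 90 fragments, and at Atp2b4 none were called.

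With each start window given to the region that covers most of it, 53 shared regions over the starts of 45 protein-coding genes were at least 2-fold higher in divided cells and 41 regions over 28 genes at least 2-fold higher in polyclonal cells. The Il2 start (chr3:37125583-37126469) had 53 and 12 fragments, 3.68-fold (1.94 to 7.56), with 9 in undivided cells. Il21 had 44 and 18 at its start, 2.03-fold (1.15 to 3.74), and none called in undivided cells, and 30 against 10 inside the gene and 85 against 31 26.7 kb away. At both of these neighbouring starts the pileup was thus higher in divided than in polyclonal cells. The lack of an undivided call at the Il21 start does not show it to be closed. The 12 shared regions of Il21 had log2 ratios from −1.19 to 1.32, with 1 divided-only and 1 polyclonal-only region. Their median of 0.74 turned to −0.061 by the authors' fold. Hk2, the inducible hexokinase of glycolysis, had 113 and 43 (2.19-fold, 1.53 to 3.19), with 37 in undivided cells. Tnfsf14 had 116 and 45 (2.15-fold, 1.51 to 3.10), Casp4 59 and 19 (2.59-fold, 1.52 to 4.59), and Plscr1, a phospholipid scramblase induced by interferon, 86 and 28 (2.56-fold, 1.65 to 4.07). Cdkn2a, the locus of a cell cycle inhibitor, had 30 and 9, and Il18, an inflammatory cytokine, 32 and 12. On the other side Cd101 had 46 and 94 fragments (2.45-fold lower, with 96 in undivided cells), Dapk1, a death-associated kinase, 16 and 49 (3.68-fold lower, 38 in undivided cells), and Bbc3, the cell death activator PUMA, 96 and 162 (2.03-fold lower, 1.56 to 2.66, 117 in undivided cells). Called in divided cells only were, among 158 genes, the starts of Asns, the asparagine synthetase (35 fragments), Egr4, an early response factor (21), and Tlr1 (25). Called in polyclonal cells only were, among 43, those of the integrin Itgam (22), the gut homing receptor Ccr9 (16) and the T cell regulator Hopx (12). For each of the 5 searched motifs the intervals of the sides overlapped, which does not show that the sides were alike. The 298 divided-side and 116 polyclonal-side windows came from 265 and 107 regions, so they were not independent. The motif TGANTCA (AP-1) was in 6.71% of 298 divided-side (4.39 to 10.1) and 5.17% of 116 polyclonal-side start windows (2.39 to 10.8), against 6.77% of all 31396, each searched over the 250 bases before the start on both strands. TGTGGT (RUNX) was in 11.7% (8.57 to 15.9) and 19.8% (13.6 to 28.0), against 14.0% of all, and GGTGTGA (T-box) in 6.38% (4.12 to 9.74) and 5.17%, against 3.37%. GGGNNTTCC (NF-kB) was in 5.37% and 6.03%, against 5.03%, and the interferon response motif in 2.35% and 3.45%, against 2.98%. All 31396 windows include those under no region, whereas the windows of both sides lie under one. Under a region of either list lay 12669 windows. Of these, 3.95% held AP-1, 10.4% RUNX, 2.78% T-box, 6.53% NF-kB and 2.49% the interferon response motif. The divided-side intervals of AP-1 and T-box and the polyclonal-side interval of RUNX lay above these shares. The other side intervals included them. All motif matches are letters in a window and not sites.

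For orientation the lists of T cell genes are given by counts beside all genes, of which 7112 with at least 2 shared regions had a median of 0.01, with 5174 divided-only and 2618 polyclonal-only regions and 838 and 599 shared regions past 2-fold. Th17 genes had the highest median of the lists, 0.39 (0.21 by the authors' fold), with 7 of the 8 members with at least 2 shared regions above 0. All 12 members together had 14 and 3 one-sided regions and 8 and 0 shared regions past 2-fold. Il23r, the IL-23 receptor, was the lowest of those 8 at −0.26. Left out of the 8 were Il17f, with no region, and Il17a (0.52), Il22 (0.15) and Ccr6 (−0.51), with 1 shared region each. Ccr6 had 0 divided-only and 2 polyclonal-only regions. Th1 genes had a median of 0.21, but −0.05 by the authors' fold and −0.00 when scaled by background, with 12 and 1 one-sided regions, 8 and 1 of them at Ifng. Tbx21, the Th1 lineage factor, was the lowest of that list at −0.44, with 15 against 25 inside the gene. For the follicular helper list the median was 0.27, but −0.01 by the authors' fold with 3 of 9 members above 0, Il21 being highest and Bcl6, its lineage repressor, lowest at −0.22. Maf, of that list, had 79 against 19 fragments (3.46-fold, 2.08 to 6.05) and 2 divided-only regions of 38 and 58 fragments, with no peak in undivided cells at any of the 3.

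Treg genes had a median of 0.00, but the members differed widely. Il10, the anti-inflammatory cytokine, was highest at 0.95 (0.054 by the authors' fold): upstream (chr1:130993543-130994267) it had 182 and 71 fragments, 2.13-fold (1.61 to 2.85), with 19 in undivided cells, and 58 against 21 and 34 against 13 in 2 more. Lrrc32, which presents latent TGF-beta on Treg cells, was lowest at −0.53 with 2 polyclonal-only regions. The inhibitory receptors had a median of 0.14, but −0.00 by the authors' fold, led by Havcr2 (TIM-3, 0.87 by that measure), whose 3 shared regions had 20 against 7, 19 against 7 and 25 against 7 fragments. Genes of naive and quiescent cells had a median of 0.05 with 32 and 18 one-sided regions. Id3, an inhibitor of E proteins, was the highest of that list at 0.40. Activation regulators (0.08), cytotoxic genes (0.05), Th2 genes (0.12) and migration genes (0.00) lay close to all genes. Nr4a2 was the highest activation gene at 0.47 and Nr4a1 the lowest at −0.31, Gzmk and Prf1 were the ends of the cytotoxic list at 0.43 and −0.24, Rad50 and Ccr4 of the Th2 list at 0.52 and −0.05, and Gcnt1 and Ccr2 of the migration list at 0.60 and −0.82. Medians and ends are over members with at least 2 shared regions, 4 of 9 cytotoxic and 4 of 8 Th2 genes. Ccl5 (2.28), Gzma (−0.47) and Il4 (0.89), with 1 shared region each, lay beyond the ends of their lists. Entpd1 was the lowest inhibitory receptor at −0.09. By the authors' fold in place of pileup the medians of Entpd1, Lrrc32, Prf1 and Ccr2 were 0.12, 0.22, 0.13 and −0.19, and over regions within 20 kb that of Id3 was −0.38. Of 12 cell cycle genes, 6 could be read, with a median of 0.31, Rrm2 highest at 0.48 and Ccne1 lowest at −0.10. Mcm5 (−0.36) and Mcm2 (−0.29), with 1 shared region each, were lower. Scaled by background, the Th17, follicular helper and cell cycle medians were 0.17, 0.06 and 0.09 and those of the other 8 lists −0.00 to −0.21, beside −0.20 for all genes. By the authors' fold the medians were 0.09 for Treg and cell cycle genes, 0.11 for cytotoxic genes, 0.06 for Th2 genes and 0.00 to 0.02 for naive, activation and migration genes, beside 0.01 for all genes.

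**Figure D5:**
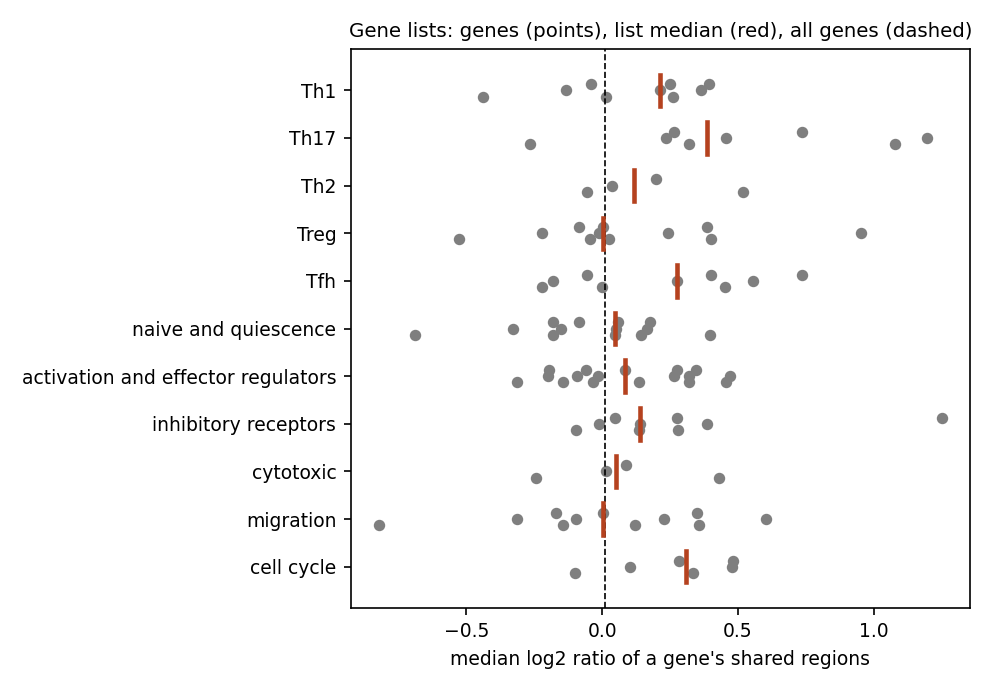
Median log2 ratio of each gene's shared regions (points, genes with at least 2), by T cell gene list, with the list median in red and the median of all genes, 0.01, dashed. Havcr2 (1.25) lies farthest to the right and Ccr2 (−0.82) farthest to the left.

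Markers of other cells were also counted. CD8 T cell genes had 2 divided-only and 5 polyclonal-only regions, and at the Cd8b1 gene ends the pileup was 27.5 (rescaled) in divided, 63 in polyclonal and 51 in undivided cells. The summed gene-end pileups of divided (rescaled) and polyclonal cells were 121 and 130 for B cell genes, 40.0 and 74 for myeloid genes, 191 and 196 for dendritic cell genes, 137 and 180 for CD8 T cell genes, 117 and 136 for NK and innate lymphoid genes, 20.8 and 49 for epithelial genes and 35.8 and 50 for stromal and endothelial genes. In the dendritic cell sums the gene ends of Xcr1 alone held 146 (rescaled) and 171. The other dendritic cell genes with a gene-end region were higher in divided cells: Flt3 (20.8 and 18), Batf3 (15.8 and 7) and Clec9a (8.32 and none). In the B cell sums the gene ends of Cd79a alone held 80.8 and 94. The Xcr1 and Cd79a values do not give the log2 ratio of the 1 region nearest to each gene (−0.26 and −0.12). They therefore include a region nearest to another gene. Of 10 myeloid markers 7 had no gene-end region in any library, and of 10 B cell markers 6. Their part in the polyclonal-side regions, such as the Itgam start, was not tested.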

How the data were processed

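ATAC-seq peak lists of 3 sorted fractions, 1 per fraction, were used. Peak calling with MACS2 2.1.0 on build mm10, alignment with Bowtie2 2.3.2, trimming with Trimmomatic 0.33 and cutadapt 1.12, and use of bcl2fastq 2.17, SAMtools and Picard are per the submitters' processing notes. The sources used here do not say how duplicate pools entered a list or whether reads were shifted. The deposited lists give positions, a whole-number score, the authors' fold enrichment over local background as a ratio, and −log10 p and −log10 q values. They hold peaks down to a −log10 q of 1.31 (divided) and 1.30 (polyclonal). Read totals were not given. The summit pileup and background were solved for from the authors' fold, read as (pileup + 1)/(background + 1), together with −log10 p under a Poisson model. Pileups were whole within 0.001 for 99.96% of divided and 99.98% of polyclonal peaks.

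Python 3.11.15, pandas 2.3.3, numpy 2.4.6 and scipy 1.17.1 were used, and the scripts were tested on simulated data. Regions are peaks overlapping by 1 bp or more, with the highest pileup of each list. Genes are RefSeq GRCm38.p6 protein-coding spans. Ratio intervals are exact conditional binomial and share intervals Wilson, both 95%. Named genes were the 10 highest and 10 lowest by net count, the 6 and 6 by median ratio, those nearest the 8 strongest one-sided regions on each side and the 6 highest and 6 lowest shared ratios, and the ends of each list, leaving out predicted genes except beside single regions. Some genes that these rules name are not reported here. Other genes named, at starts, in the tally of shared regions and Maf in its list, were chosen after their values were seen. The members, lists and rules were chosen with earlier results of these data known. The promoter table holds 31396 windows on these chromosomes, none on chromosome 18, and shares over starts leave that chromosome out. Alternatives are given in the closing section.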

Additional observations from a re-analysis of the deposited data

How the results depend on the processing

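No paired analysis was possible because each group is 1 library. Read totals are unknown, and the share called in 1 list is limited by depth. With −log10 q limited to 5 or more, the one-sided regions numbered 5483 (divided) and 2829 (polyclonal), a divided share of 66.0%, and at 10 they numbered 1697 and 784 (68.4%). Overlap of at least 50% of the narrower peak gave a share of 60.2%. With a common minimum pileup of 10 fragments, chosen after seeing the data, the counts were 4922 and 3214 when rescaled by shared regions and 4344 and 3214 (57.5%) when rescaled by background. For shared regions past 2-fold, rescaling by background gave 415 and 1182 in place of 917 and 661, and the authors' fold gave 188 and 130. At 3-fold there were 143 and 121. Gene by gene, the net count of Lef1 was 1 when only regions with −log10 q from 10 upward were counted. Under that limit Egfr, Tbc1d22a, Trpm1, Tnrc6b and Eomes stood at −1, Zfhx3 at −2, Tspan9 and Slc4a4 at −3 and Sgk1 at −4. The 10 highest genes stood at 2 to 4. By the authors' fold the medians of Entpd1 (0.12), Il21 (−0.061), Lrrc32 (0.22), Prf1 (0.13) and Zfp800 (0.020) changed sign, as did Id3 within 20 kb (−0.38). The other 139 net counts and 96 medians recomputed kept their sign or were 0, though 64 and 12 of them moved. By the authors' fold the medians of Tspan9 (−0.15), Il10 (0.054), Il1r1 (0.19), Synpo (0.36), Dclk1 (0.67), Havcr2 (0.87), Ccr2 (−0.19) and Skil (−0.41) were nearer 0, and the medians of the Th1 (−0.05), follicular helper (−0.01) and inhibitory receptor (−0.00) lists fell below 0. The causes were not tested.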

Other observations

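Genes on chromosome X were outside the merged autosomal regions and belong to no rank above. There the lists shared 800 regions near a gene, with 268 in the divided list only and 166 in the polyclonal list only, and the shared regions had a median log2 ratio of 0.02 on the autosomal scale. Cxcr3, a chemokine receptor of Th1 cells, had 53 fragments in divided and 11 in polyclonal cells inside the gene (chrX:101733771-101734453), 4.01-fold higher, with 13 in undivided cells, and a further region of 26 fragments called in divided cells only. Cd40lg, the helper ligand for B cells, had 1 region with 56 against 16 fragments (chrX:57177190-57177715), with 23 in undivided cells, while 7 other shared regions had log2 ratios from −0.30 to −0.00. Near Cd40lg a region of 19 fragments was called in polyclonal cells only, with 21 in undivided cells, and 1 of 14 in divided cells only. Foxp3, the Treg lineage factor, was mixed: a region inside the gene had 14 and 18 fragments, 1 was called in divided cells only with 21, and 2 in polyclonal cells only with 21 and 12.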
